A study of Homo sapiens with 20 samples.

Results

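The response of ADAR1-deficient cells to interferon-β (IFN-β) was compared, gene by gene, with that of control cells, to ask whether the change with *ADAR* knockout (KO) and IFN-β together was larger or smaller than the separate changes add up to. The comparison was made in A549, an established human lung adenocarcinoma cell line that tolerates *ADAR* deletion in the study. It used all 8 A549 libraries among the 20 RNA-seq libraries of the series. The other 12 libraries came from the lines HCC366, NCI-H1650 and NCI-H196, which received no IFN-β. The A549 libraries formed 4 groups of 2: GFP sgRNA with vehicle (GFP Vehicle), GFP sgRNA with IFN-β (GFP IFNB), ADAR sgRNA with vehicle (ADAR Vehicle) and ADAR sgRNA with IFN-β (ADAR IFNB). The GFP sgRNAs target the gene of green fluorescent protein, which the human genome lacks. All cells, controls included, carried the same lentiviral vector expressing Cas9 and an sgRNA. IFN-β (10 ng/mL) or vehicle was given for 24 h. The 2 libraries of a group came from 2 different sgRNAs against the same target, so the error here is the spread between sgRNAs, and the sources used here do not say that any condition was repeated with the same sgRNA. They also do not say whether the cells were pools or clones. The counts do not separate the p110 and p150 forms of ADAR1, nor edited from mutated transcripts.

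As background, ADAR1 is an enzyme that converts adenosines to inosines in double-stranded RNA (dsRNA), which keeps the cell's own RNA from being read as viral. IFN-β binds its receptor and acts through the kinases JAK1 and TYK2 on transcription factors that switch on the interferon-stimulated genes (ISGs). Many dsRNA sensors are themselves ISGs, among them PKR, the product of *EIF2AK2*, which phosphorylates the translation factor eIF2α once it binds dsRNA, and eIF2α phosphorylation favours translation of the transcription factor ATF4. Other dsRNA sensors act through MAVS on NF-κB and on the factors that induce IFN-β itself.

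The 8 libraries held between 7381566 and 19520189 counts on genes, with a median of 10371025.5. The share of alignments that were not unique ran from 39.6% to 59.1% and was highest in GFP IFNB replicate 2. None of the 8 libraries repeated another. Of the genes in the table, 15449 passed the filter on low counts. Airway epithelial and A549 markers were high in all groups, where 7 or 8 of the 10 reached 1 CPM, the unit of each library's counts once scaled to a common total. The list summed to 11730 to 12020 CPM in GFP Vehicle, 11770 to 12600 CPM in ADAR Vehicle, 13040 to 14760 CPM in GFP IFNB and 10960 to 11650 CPM in ADAR IFNB, so that the IFN-β groups did not overlap. In the interaction defined below, 8 of the 9 members tested had a negative value, where the median of all genes tested was 0.0025. Among the 9, 1 was called less than additive (11.1%, against 0.977% of all genes tested). Of 9 alveolar type 2 markers, 3 were at 0 in all 8 libraries, and the list summed to 15.05 to 23.8 CPM in the vehicle groups, 40.5 to 43.4 CPM in GFP IFNB and 32.1 to 36.2 CPM in ADAR IFNB. Of 7 leukocyte markers, 3 were at 0 in all 8 libraries. That list summed to 8.93 to 11.5 CPM in ADAR IFNB and to 3.05 to 5.78 CPM in the other groups, with *ITGAM* alone reaching 1 CPM. Of 7 fibroblast markers, 1 reached 1 CPM and 1 was at 0 in all 8 libraries, and that list summed to 40.3 to 64.2 CPM in GFP IFNB and to 29.3 to 37.7 CPM in the other groups. The 4 endothelial markers summed to at most 0.365 CPM. The part of these lists in the results was not tested. Since each library is scaled to its own total, a change in the number of cells in some state and a change in the RNA of each cell cannot be told apart in these values.

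The targeted gene, at chr1:154554171-154600489, minus strand in GRCh37, was checked first. *ADAR* read 436 and 437 CPM in GFP Vehicle, 161 and 250.1 CPM in ADAR Vehicle, 1219 and 1193 CPM in GFP IFNB, and 691 and 895 CPM in ADAR IFNB. Every library with an ADAR sgRNA was thus below both GFP libraries of the same treatment, and IFN-β raised *ADAR*, itself an ISG, with either target. The log2 change with *ADAR* KO was -1.08 (SE 0.13, edgeR adjusted p = 9.98e-05) with vehicle and -0.60 (SE 0.13, edgeR adjusted p = 0.00148) with IFN-β, and the change with IFN-β was 1.47 (SE 0.13, edgeR adjusted p = 6.81e-10) with the GFP sgRNAs. The log2 interaction of 0.48 (SE 0.19, edgeR adjusted p = 0.145) did not pass the test. *EIF2AK2* (chr2:37326353-37384665, minus strand) encodes PKR. With vehicle, *EIF2AK2* stood at 106 and 106 CPM with the GFP sgRNAs and at 105 and 102 CPM with the ADAR sgRNAs, and with IFN-β it stood at 668 and 552 CPM against 594 and 617 CPM. All 4 IFN-β libraries were above all 4 vehicle libraries, and the GFP and ADAR ranges overlapped with IFN-β. Its log2 interaction was 0.025 (SE 0.14, edgeR adjusted p = 0.955).

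The interaction was the log2 change of ADAR against GFP with IFN-β minus the log2 change of ADAR against GFP with vehicle. It is equally the log2 change with IFN-β in the ADAR sgRNA cells minus that in the GFP sgRNA cells. A gene was called when the p of the quasi-likelihood F-test of edgeR, adjusted over every gene tested by the method of Benjamini and Hochberg, was under 0.05. Of 15449 genes tested, 780 (5.05%) were called, of which 629 (4.07%) were more than additive, with a positive interaction, and 151 (0.977%) were less than additive. An unadjusted p under 0.05 was reached by 2881 genes. Between ADAR and GFP sgRNAs with vehicle, 5 genes (0.0324%) were called higher and 14 (0.0906%) lower. The same contrast in IFN-β gave 1666 higher (10.8%) and 956 lower (6.19%). Between IFN-β and vehicle, 678 genes (4.39%) rose and 202 (1.31%) fell in the GFP sgRNA cells, and 2391 (15.5%) rose and 1397 (9.04%) fell in the ADAR sgRNA cells. These 4 comparisons share libraries, so they are used here only to sort the genes into classes. At the threshold, *MYL6* with a log2 interaction of -0.47 (adjusted p = 0.0494 by edgeR) and *HNRNPA1P10* with -1.18 (0.0495) were the last genes inside, and *GGH* with -0.67 (0.0501) and *SIPA1L3* with 0.47 (0.0502) the first outside.

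The number of calls depended on which libraries entered the fit. Without GFP IFNB replicate 2, the library with the most non-unique alignments, 686 genes were called, 571 more and 115 less than additive. Without ADAR IFNB replicate 2, the deepest library, 253 were called (235 and 18). Without GFP Vehicle replicate 2 the counts were 306 and 20, without ADAR Vehicle replicate 1 they were 390 and 52, and without ADAR Vehicle replicate 2 they were 374 and 44. The number rose to 1663 (1049 and 614) without GFP IFNB replicate 1. With an offset for GC content and transcript length in each library, an alternative chosen after seeing the data, 629 genes were more and 458 less than additive, so that the share of more-than-additive calls was 57.9% in place of 80.6%. Of the 629 and 151 genes, 541 and 121 remained called with these offsets. All 629 and all 151 kept their direction with the offsets and with each library left out in turn. These genes were called on the same libraries, so the kept direction is not independent evidence.

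A difference of log2 changes is a ratio of ratios, so it was also read on the linear scale. The CPM of ADAR IFNB minus GFP IFNB minus ADAR Vehicle plus GFP Vehicle was positive for all 629 more-than-additive genes in each of the 16 choices of 1 library per group. It was negative for all 151 less-than-additive genes by the group means, and for 143 of them in each of the 16 choices. The direction of the calls was therefore the same on both scales. The replicate spread can be read from the change with IFN-β within each sgRNA. Over the 629 genes the median log2 response was 0.071 and -0.049 with the GFP sgRNAs and 0.81 and 1.11 with the ADAR sgRNAs. Over the 151 genes it was 0.056 and 0.29 with the GFP sgRNAs and -0.37 and -0.59 with the ADAR sgRNAs. Both ADAR responses exceeded both GFP responses for 629 of the 629 genes, and both lay below for 150 of the 151. Over all genes tested the 2 pairs of responses did not overlap for 46.1%.

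**Figure D1:**
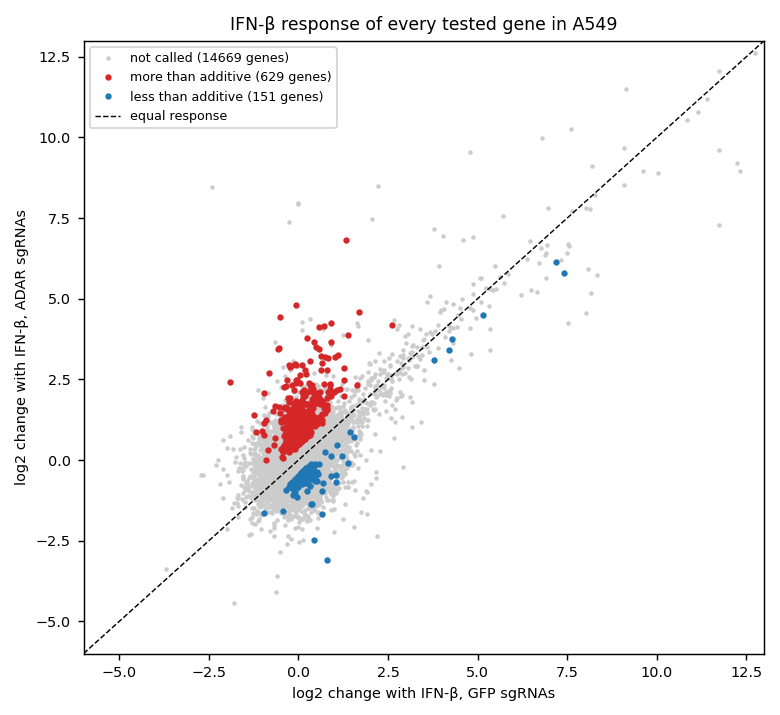
Each point is 1 gene tested, with its log2 change with IFN-β in the GFP sgRNA cells on the horizontal axis and in the ADAR sgRNA cells on the vertical axis, and genes called in the interaction are coloured by direction. The 629 more-than-additive genes lie above the diagonal, most of them near 0 on the horizontal axis, and the 151 less-than-additive genes lie below it.

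The more-than-additive genes fell mainly into one class. For 571 of the 629, IFN-β made no called change in the GFP sgRNA cells. Of these, 547 were also not called between ADAR and GFP with vehicle, and were called up in ADAR IFNB against both GFP IFNB and ADAR Vehicle. The median levels of these 547 genes were 36.9, 36.4 and 37.4 CPM in GFP Vehicle, ADAR Vehicle and GFP IFNB, and 68.9 CPM in ADAR IFNB. The class is defined by calls in these same libraries, so ADAR IFNB standing apart restates how its genes were sorted. The same holds for the median levels of the other classes. The class is led by *PPP1R15A* and *KDM6B*, its genes with the smallest p. With vehicle, *KDM6B* stood at 19.002 and 21.7 CPM with the GFP sgRNAs and at 17.1 and 19.9 CPM with the ADAR sgRNAs, and with IFN-β it stood at 17.8 and 21.3 CPM against 113 and 173 CPM. *KDM6B* encodes a histone H3 lysine 27 demethylase, and its log2 interaction was 3.02 (SE 0.24, edgeR adjusted p = 1.38e-09). In a second class of 50 genes IFN-β was called up in the GFP sgRNA cells and the rise was larger in the ADAR sgRNA cells. The 48 of these that were also higher in ADAR IFNB than in GFP IFNB had median levels of 36.1, 38.7, 54.4 and 149.8 CPM in the order used above. In the remaining class, IFN-β was called down in the GFP sgRNA cells for 8 genes.

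Those 8 genes include *ODC1*, which encodes ornithine decarboxylase, the first enzyme of polyamine synthesis. *ODC1* read 413 and 388 CPM in GFP Vehicle, 393 and 392 CPM in ADAR Vehicle, 213 and 214 CPM in GFP IFNB, and 359 and 427 CPM in ADAR IFNB. With the GFP sgRNAs IFN-β lowered it, by a log2 change of -0.91 (SE 0.099, edgeR adjusted p = 3.71e-08), while the ADAR IFNB libraries stood at the vehicle level. Its log2 interaction was 0.91 (SE 0.14, edgeR adjusted p = 6.09e-05). *KRT80*, a keratin, had the same pattern with an interaction of 0.67. *SYNPO*, an actin-associated protein, and *IRGQ* were called down with IFN-β in the GFP sgRNA cells and up in the ADAR sgRNA cells, with interactions of 0.93 and 0.84. Of the 629 genes, only *EGR1* and *TFPI2* were also called between ADAR and GFP with vehicle, *EGR1* up and *TFPI2*, a protease inhibitor, down. Other small classes hold *STX17*, *PARP8*, *CYP3A5*, *SLC35F3*, *MUC13* and *FGD4*, with interactions between 0.83 and 2.49. Some calls were lost in part of the 8 fits that left out 1 library, and the number of such fits is given in brackets. They were those of *KRT80* (1), *TFPI2* (4), *STX17* (5), *PARP8* (5), *CYP3A5* (3), *SLC35F3* (5), *MUC13* (2) and *FGD4* (3).

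The 2 largest interactions of the called genes were those of *EGR1* and *FOSB*, which are immediate-early genes, a group whose transcription rises within minutes of a growth factor or stress signal without new protein synthesis. Of 44 listed, 40 were tested, 39 of which would also have passed the filter without the ADAR IFNB libraries. Of the 40, 27 were more than additive, against 4.07% of all genes, 0 were less than additive and 13 were not called. The median log2 interaction of the 40 was 1.07, against 0.0025 for all genes tested. *EGR1* read 0.792 and 0.332 CPM in GFP Vehicle, 1.95 and 4.98 CPM in ADAR Vehicle, 1.59 and 0.994 CPM in GFP IFNB, and 309 and 498 CPM in ADAR IFNB. The 2 ADAR IFNB libraries were far above the 6 others, and both ADAR Vehicle libraries were also above both GFP Vehicle libraries. *EGR1*, a zinc finger transcription factor, had the largest log2 interaction of the called genes, 5.49 (SE 0.99, edgeR adjusted p = 5.95e-04). It was also called between ADAR and GFP with vehicle, at a log2 change of 2.85 (SE 0.55, edgeR adjusted p = 0.0172). For *FOS*, the levels were 2.24 and 1.13 CPM (GFP Vehicle), 1.95 and 2.14 CPM (ADAR Vehicle), 1.5 and 2.55 CPM (GFP IFNB), and 21.1 and 30.1 CPM (ADAR IFNB). Both ADAR IFNB libraries were above the 6 others, which overlapped. *FOS*, a subunit of the AP-1 transcription factor, had a log2 interaction of 3.21 (SE 0.52, edgeR adjusted p = 1.36e-04), and the related *FOSB* 4.94 (SE 0.50, edgeR adjusted p = 5.64e-08). Among the other members, the phosphatase gene *DUSP8*, which acts on MAP kinases, had 4.01, and *MYC* and *RHOB* the smallest called values, 0.59 and 0.59. *DUSP4*, another phosphatase gene, was at 0.23 and was not called. The calls of *MYC* (highest adjusted p by edgeR 0.124) and *RHOB* (0.0725) were lost without at least 1 of ADAR IFNB replicate 2, ADAR Vehicle replicate 1, GFP Vehicle replicate 1 and GFP Vehicle replicate 2.

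The promoter of *EGR1* is shown because it holds 2 CArG boxes, the element that serum response factor binds in immediate-early promoters, within the 250 bases before its start. The sequence is RefSeq's, build GRCh38.p14, chr5:138465229-138465478 (plus strand), written 5′ to 3′ along the gene, with the CArG boxes and a GAS match (TTCNNNGAA) in capitals.
EGR1: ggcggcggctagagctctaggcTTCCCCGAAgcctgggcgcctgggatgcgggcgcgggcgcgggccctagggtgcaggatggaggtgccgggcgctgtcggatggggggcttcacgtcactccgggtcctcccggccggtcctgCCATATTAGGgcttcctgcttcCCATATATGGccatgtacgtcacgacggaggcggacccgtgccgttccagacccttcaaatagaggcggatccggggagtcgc
The CArG boxes begin 105 and 83 bases before the start, and the GAS match begins 228 bases before it. This promoter is not typical of its list. Of 32 immediate-early genes with a promoter in RefSeq, 2 held a CArG box in these bases (6.25%, against 0.971% of all genes tested).

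NF-κB subunits and the genes of its feedback loop formed the second group. NF-κB is held in the cytoplasm by IκB proteins and, once released, induces its own subunits and inhibitors together with chemokines. Of 25 genes listed, 23 were tested, 22 of which would have passed the filter without the ADAR IFNB libraries. Of the 23, 16 were more than additive, against 4.07% of all genes, and 0 less, and the median log2 interaction was 1.06. With vehicle, *TNFAIP3* stood at 10.8 and 12.6 CPM with the GFP sgRNAs and at 13.4 and 15.9 CPM with the ADAR sgRNAs, and with IFN-β it stood at 21.9 and 22.4 CPM against 151 and 221 CPM. IFN-β alone made a small rise, a log2 change of 0.90 (SE 0.17, edgeR adjusted p = 4.58e-04), and the ADAR IFNB libraries were far above all others. *TNFAIP3* encodes A20, a ubiquitin-editing enzyme that shuts NF-κB signalling off, and its log2 interaction was 2.77 (SE 0.24, edgeR adjusted p = 3.24e-09). *TRAF1*, an adaptor of TNF receptors, behaved alike, with mean levels of 30.6 ± 0.14 CPM in GFP IFNB and 261 ± 76.8 CPM in ADAR IFNB (SD, n = 2 sgRNAs) and a log2 interaction of 2.91 (SE 0.26, edgeR adjusted p = 4.83e-09). Called members also included the IκB-family gene *NFKBIZ* (1.52), the ubiquitin ligase genes *BIRC3* (1.59) and *TRAF2* (0.68), and *BCL3* (0.59). *RELA*, the main activating subunit, was at 0.49, *NFKBIB* at 0.41 and *TNIP1* at 0.32, and these were not called. The calls of *TRAF2* (highest adjusted p by edgeR 0.0902) and *BCL3* (0.194) were lost without at least 1 of ADAR IFNB replicate 2, ADAR Vehicle replicate 1, ADAR Vehicle replicate 2, GFP Vehicle replicate 1 and GFP Vehicle replicate 2.

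Of 20 chemokines listed, 9 were tested, and 6 of these were more than additive, against 4.07% of all genes. The median log2 interaction over the 9 was 1.59. *CXCL8* read 3.69 and 6.77 CPM in GFP Vehicle, 3.78 and 5.9 CPM in ADAR Vehicle, 5.35 and 5.34 CPM in GFP IFNB, and 95.01 and 180.2 CPM in ADAR IFNB. The 6 libraries other than ADAR IFNB overlapped, and both ADAR IFNB libraries were well above them. *CXCL8*, which encodes the neutrophil attractant interleukin 8, had a log2 interaction of 4.88 (SE 0.40, edgeR adjusted p = 2.32e-09). *CCL20*, *CXCL3*, *CXCL1*, *CXCL2* and *CCL2* were called at 3.50, 1.91, 1.59, 1.34 and 1.22. *CCL5* had a log2 interaction of 2.08 (SE 1.38, edgeR adjusted p = 0.446), and *CXCL5* 0.30, and neither was called. Of 22 inflammatory cytokines, 13 were tested and 10 would have passed the filter without the ADAR IFNB libraries. Of the 13, 5 were called more than additive, 4 of them among those 10. For *IL6*, the levels were 41.04 and 28.4 CPM (GFP Vehicle), 43.7 and 31.6 CPM (ADAR Vehicle), 59.6 and 47.5 CPM (GFP IFNB), and 255 and 348 CPM (ADAR IFNB). *IL6* was higher with IFN-β in all 4 pairs of libraries of 1 sgRNA, and its log2 interaction was 2.37 (SE 0.23, edgeR adjusted p = 2.35e-08). With vehicle, *IL11* stood at 227 and 216 CPM with the GFP sgRNAs and at 222 and 232 CPM with the ADAR sgRNAs, and with IFN-β it stood at 214 and 209.5 CPM against 606 and 907 CPM. For *IL11*, an interleukin 6 family member, IFN-β alone made no called change, and the log2 interaction was 1.80 (SE 0.17, edgeR adjusted p = 2.16e-08). *IL32* and *LIF* were called at 2.11 and 1.24. *IL1A* was called at 3.57 but passed the filter only through the ADAR IFNB libraries. *IL18* and *IL15*, at 0.40 and 0.49, were not called. The calls of *CXCL3*, *CCL2* and *IL1A* were lost in 1, 1 and 6 of the 8 fits that left out 1 library.

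The promoters of 4 of these genes are shown because NF-κB and AP-1 sites lie close to their starts. They are RefSeq sequences of build GRCh38.p14, the 250 bases before the start, 5′ to 3′ along the gene, with any match to 9 motifs in capitals. *CXCL8* lies at chr4:73740319-73740568 (plus strand), *CXCL2* at chr4:74099196-74099445 (minus strand), *TNFAIP3* at chr6:137867009-137867258 (plus strand) and *NFKBIA*, which encodes the inhibitor IκBα, at chr14:35404750-35404999 (minus strand).
CXCL8: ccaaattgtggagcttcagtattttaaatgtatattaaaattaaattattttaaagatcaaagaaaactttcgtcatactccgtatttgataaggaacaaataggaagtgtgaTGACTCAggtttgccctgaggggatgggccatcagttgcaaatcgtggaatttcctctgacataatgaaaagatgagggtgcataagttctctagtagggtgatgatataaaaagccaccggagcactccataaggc
CXCL2: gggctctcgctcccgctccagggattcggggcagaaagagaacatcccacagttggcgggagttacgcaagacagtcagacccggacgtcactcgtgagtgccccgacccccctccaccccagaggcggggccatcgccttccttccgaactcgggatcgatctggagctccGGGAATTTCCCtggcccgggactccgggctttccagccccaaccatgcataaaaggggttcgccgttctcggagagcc
TNFAIP3: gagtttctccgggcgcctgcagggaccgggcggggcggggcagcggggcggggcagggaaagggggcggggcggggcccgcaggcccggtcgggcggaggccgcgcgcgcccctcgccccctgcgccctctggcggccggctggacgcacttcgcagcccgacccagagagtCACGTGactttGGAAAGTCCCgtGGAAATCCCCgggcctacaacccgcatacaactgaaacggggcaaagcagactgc
NFKBIA: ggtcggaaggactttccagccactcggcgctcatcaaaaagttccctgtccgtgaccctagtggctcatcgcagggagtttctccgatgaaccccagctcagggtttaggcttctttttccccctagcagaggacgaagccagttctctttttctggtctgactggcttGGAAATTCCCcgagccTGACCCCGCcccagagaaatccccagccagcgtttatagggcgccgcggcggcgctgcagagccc
In *CXCL8* the capitals mark an AP-1 site that begins 137 bases before the start. In *CXCL2* they mark 2 overlapping NF-κB matches at 78 and 77 bases. In *TNFAIP3* they mark an E-box (CACGTG) at 78 bases and NF-κB sites at 67 and 55 bases, and in *NFKBIA* an NF-κB site at 81 bases and an antioxidant response element match at 65 bases. *NFKBIA* itself had a log2 interaction of 1.23 (SE 0.16, edgeR adjusted p = 6.89e-06). Of 20 NF-κB subunit and feedback genes with a promoter in RefSeq, 6 held an NF-κB site in these bases (30%, against 6.07% of all genes tested). Only exact matches are in capitals, so a promoter without a marked NF-κB site may still hold a close variant. In *CXCL8* the unmarked stretch tggaatttcc differs from the NF-κB pattern searched only in its first base. That pattern was GGGRNWYYCC, with R for A or G, W for A or T, Y for C or T and N for any base.

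**Figure D2:**
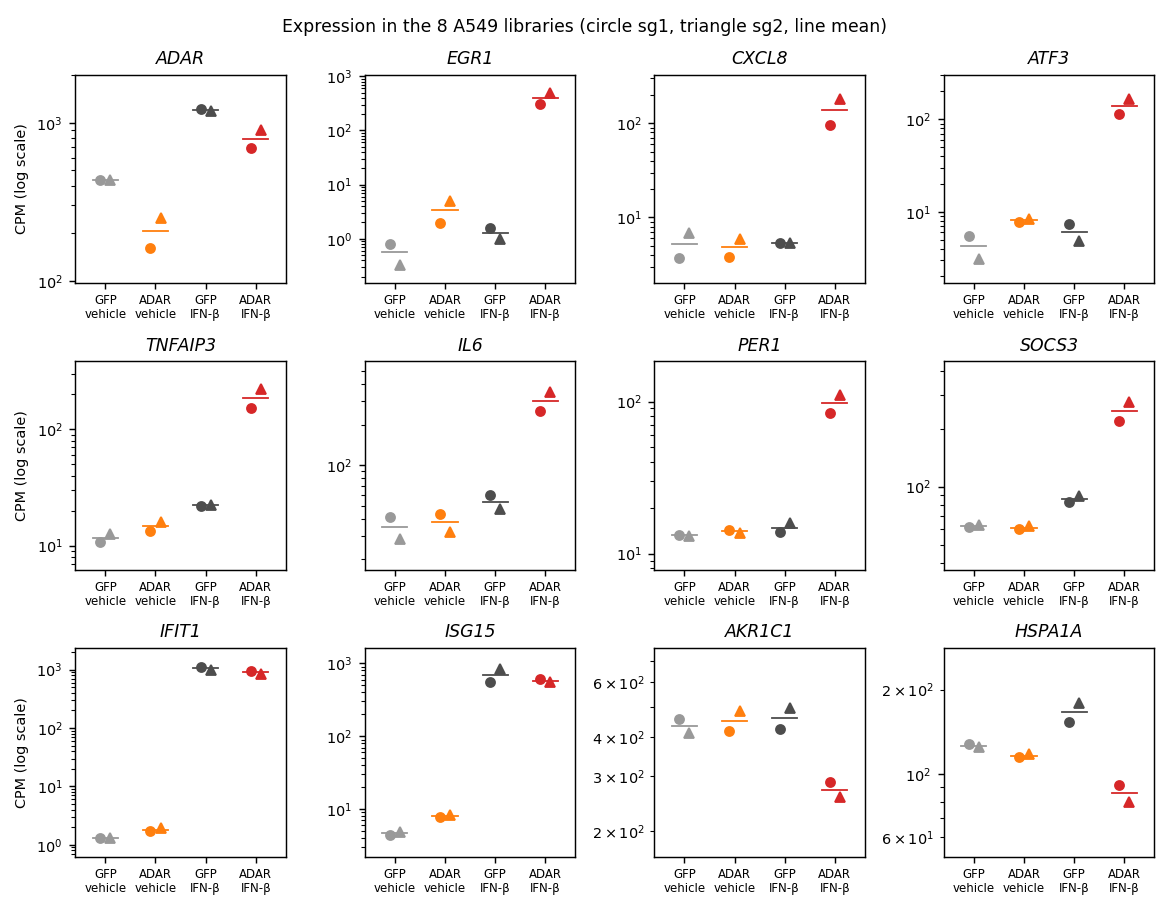
CPM in each of the 8 libraries, on a log axis, for 12 genes, with a circle for sgRNA 1, a triangle for sgRNA 2 and a line at the mean of each of the 4 groups. For *EGR1*, *CXCL8*, *ATF3*, *TNFAIP3*, *IL6*, *PER1* and *SOCS3* both ADAR IFNB points lie above all 6 other points, for *AKR1C1* and *HSPA1A* they lie below, and for *IFIT1* and *ISG15* both IFN-β groups lie together.

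ATF4 and its targets are the transcriptional arm of the integrated stress response. The 7 ATF4 targets that the study examined were all tested and all 7 were more than additive, with a median log2 interaction of 2.45. The sources used here do not say whether that list was drawn without results of this series in view, so its direction is not taken as independent evidence. *PPP1R15A* read 47.8 and 50.2 CPM in GFP Vehicle, 53.9 and 53.6 CPM in ADAR Vehicle, 49.4 and 54.8 CPM in GFP IFNB, and 345 and 483 CPM in ADAR IFNB. The 2 ADAR IFNB libraries were above all others and the other 6 lay close together. *PPP1R15A* encodes GADD34, the phosphatase subunit that reverses eIF2α phosphorylation, and with a log2 interaction of 2.86 (SE 0.18, edgeR adjusted p = 8.87e-12) it had the smallest p of all genes. With vehicle, *ATF3* stood at 5.41 and 3.12 CPM with the GFP sgRNAs and at 7.68 and 8.44 CPM with the ADAR sgRNAs, and with IFN-β it stood at 7.41 and 4.78 CPM against 115 and 167 CPM. The stress transcription factor gene *ATF3* had a log2 interaction of 3.55 (SE 0.35, edgeR adjusted p = 3.94e-08), and *DDIT3*, which encodes the pro-apoptotic factor CHOP, 2.74 (SE 0.40, edgeR adjusted p = 2.61e-05). *GADD45A* was at 2.45, and the smallest values were those of *TRIB3*, 0.73, and of the asparagine synthetase gene *ASNS*, 0.64. Of 36 further ATF4 targets and amino acid supply genes tested, of 39 listed, 7 were more than additive (19.4%, against 4.07% of all genes), and the median was 0.17. The count of 7 was 4 without GFP Vehicle replicate 1, ADAR Vehicle replicate 2 or ADAR IFNB replicate 2. The called ones included *CHAC1* (2.86), a glutathione-degrading enzyme, *SESN2* (2.44), *CEBPB* (0.87), the glutamine transporter gene *SLC38A2* (0.83), the transfer RNA synthetase gene *CARS1* (0.60) and *STC2* (0.52). The cystine transporter gene *SLC7A11* was at 0.33 and was not called. Among 15 genes of eIF2α kinases, factors and phosphatases, 2 were called, *PPP1R15A* and *PPP1R15B* (0.996), the constitutive phosphatase subunit. The mRNA of *ATF4* itself had a log2 interaction of 0.053 (SE 0.13, edgeR adjusted p = 0.888). The calls of *TRIB3*, *ASNS*, *CARS1* and *STC2* were lost in 2, 4, 5 and 5 of the 8 fits that left out 1 library.

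The promoters of *CHAC1* and *PPP1R15A* are shown for the elements that ATF4 and related factors recognise, again from RefSeq at build GRCh38.p14. *CHAC1* lies at chr15:40953221-40953470 (plus strand) and *PPP1R15A* at chr19:48872171-48872420 (plus strand).
CHAC1: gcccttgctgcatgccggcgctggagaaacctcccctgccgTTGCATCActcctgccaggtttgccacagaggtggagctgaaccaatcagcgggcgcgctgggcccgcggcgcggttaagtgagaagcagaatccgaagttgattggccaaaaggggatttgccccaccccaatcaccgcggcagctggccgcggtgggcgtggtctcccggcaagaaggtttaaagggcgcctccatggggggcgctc
PPP1R15A: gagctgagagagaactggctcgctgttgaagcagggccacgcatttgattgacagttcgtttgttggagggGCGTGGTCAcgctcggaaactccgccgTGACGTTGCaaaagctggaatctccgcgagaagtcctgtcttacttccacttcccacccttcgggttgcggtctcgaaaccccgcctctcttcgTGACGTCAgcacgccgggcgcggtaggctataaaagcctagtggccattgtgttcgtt
In *CHAC1* the capitals mark a C/EBP-ATF element (TGATGNAA, here on the other strand) that begins 209 bases before the start. In *PPP1R15A* they mark a cAMP response element (TGACGTCA) at 58 bases, and antioxidant response element matches (TGACNNNGC) at 179 and 152 bases.

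Lists of growth factor signalling and circadian clock genes also held larger shares of more-than-additive calls than the 4.07% of all genes. Of 13 EGFR ligands and feedback genes, 11 were tested and 7 were called (4 without ADAR Vehicle replicate 2), with a median of 0.94. *HBEGF* read 8.45 and 9.89 CPM in GFP Vehicle, 13.7 and 10.2 CPM in ADAR Vehicle, 12.1 and 11.1 CPM in GFP IFNB, and 43.3 and 60.4 CPM in ADAR IFNB. Both ADAR IFNB libraries were above all others. *HBEGF* encodes an EGFR ligand, and its log2 interaction was 1.83 (SE 0.28, edgeR adjusted p = 5.76e-05). The ligand gene *AREG* was at 1.20, the feedback inhibitor genes *SPRY2*, *SPRY4* and *ERRFI1* at 1.41, 1.08 and 0.94, and *EGFR* at 0.65. The feedback gene *SPRED2*, its relative *SPRED1*, and the ligand gene *TGFA* were at 0.52, 0.48 and 0.27 and were not called. Of 18 clock genes, 17 were tested, 16 of which would have passed the filter without the ADAR IFNB libraries. Among the 17, 7 were more than additive, all 7 among those 16, and the median over the 17 was 1.03. For *PER1*, the levels were 13.3 and 13.1 CPM (GFP Vehicle), 14.3 and 13.7 CPM (ADAR Vehicle), 13.8 and 15.8 CPM (GFP IFNB), and 84.4 and 110.1 CPM (ADAR IFNB). *PER1*, a repressor of the clock, had a log2 interaction of 2.63 (SE 0.23, edgeR adjusted p = 4.83e-09), with both ADAR IFNB libraries above all others. *NOCT*, *NR1D1*, *TEF*, *CRY1* and *NR1D2* were called at 2.46, 2.16, 1.70, 1.05 and 1.03. *CLOCK*, *PER2* and *NPAS2* were at 0.49, 0.52 and 0.18 and were not called. The calls of *SPRY2*, *SPRY4*, *ERRFI1*, *EGFR* and *TEF* were lost in 2, 3, 1, 1 and 4 of the 8 fits that left out 1 library.

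Smaller shares of the other groups were more than additive, to be read beside 4.07% of all genes tested. Of 15 snoRNA host genes, many of whose spliced transcripts are degraded by nonsense-mediated decay when translated, 5 were called (1 without ADAR IFNB replicate 2, 2 without GFP Vehicle replicate 2 or ADAR Vehicle replicate 2, and 3 without GFP Vehicle replicate 1). How strand was set when reads were counted is not stated in the sources used here, so reads of antisense genes such as *EPB41L4A-AS1* and of genes overlapping them may not be separated. The 5 were *EPB41L4A-AS1* 1.33, *SNHG1* 0.88, *SNHG12* 0.77, *ZFAS1* 0.71 and *GAS5* 0.63. Of 20 collagen and matrix genes tested, 5 were called, among them the laminin chain gene *LAMB3* (1.19) and the collagen genes *COL7A1* 0.68 and *COL12A1* 0.65. That count fell to 1 without GFP Vehicle replicate 2, to 2 without ADAR Vehicle replicate 2 or ADAR IFNB replicate 2, and to 3 without GFP IFNB replicate 1. Of 21 p53 targets, 4 were called (2 without GFP Vehicle replicate 1, GFP Vehicle replicate 2 or ADAR IFNB replicate 2), namely *GDF15* 1.21, *PPM1D* 0.86, *TNFRSF10B* 0.83 and *AEN* 0.64. *CDKN1A* and *MDM2*, at 0.048 and 0.18, were not called. Of 28 cell death genes tested, 4 were called (2 without ADAR IFNB replicate 2), of which the BH3-only genes *BBC3* (1.30) and *PMAIP1* (1.04) and the death receptor gene *TNFRSF10B* (0.83) favour apoptosis and *MCL1* (0.78) opposes it. Of 7 acute-phase genes tested, *C3* was called (0.56). Replication-dependent histones (47 tested) and mRNAs of the mitochondrial genome (13 tested) had 0 calls in either direction by edgeR. By the rule on the largest changes, *PTX3*, *FCMR*, *PTGS2*, *ANKRD1*, *ALOXE3*, *LURAP1L* and *PRDM1* were also named, with log2 interactions of 3.35, 3.21, 3.11, 3.10, 3.08, 3.02 and 3.01. *PTX3* encodes a soluble pattern recognition protein, *PTGS2* the inducible cyclooxygenase, and *PRDM1* a transcriptional repressor. The calls of *EPB41L4A-AS1* (highest adjusted p by edgeR 0.0742), *SNHG1* (0.066), *SNHG12* (0.309), *ZFAS1* (0.171), *GAS5* (0.289), *COL7A1* (0.311), *COL12A1* (0.394), *GDF15* (0.0701), *PPM1D* (0.311), *AEN* (0.0644), *BBC3* (0.12), *PMAIP1* (0.11) and *C3* (0.289) were lost without at least 1 of ADAR IFNB replicate 2, ADAR Vehicle replicate 1, ADAR Vehicle replicate 2, GFP IFNB replicate 1, GFP IFNB replicate 2, GFP Vehicle replicate 1 and GFP Vehicle replicate 2.

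Of 15 interferon genes listed, 4 passed the filter, and only through the ADAR IFNB libraries. These 4, *IFNB1*, *IFNL1*, *IFNL2* and *IFNL3*, were at or near 0 in every other library. The remaining 11 did not pass. Among those, the IFN-α genes and *IFNW1* had at most 1 count in any group, ADAR IFNB included. *IFNE* and *IFNK* had 15 and 10 counts in ADAR IFNB, against 15 and 11 in GFP IFNB. *IFNB1*, which encodes IFN-β, had 0 counts in each of the 6 other libraries and 17 and 62 counts in ADAR IFNB replicates 1 and 2, or 2.75 CPM over the pair. Taking the 3 counts per group that a count of 0 allows as the floor, this was at least 24.5-fold higher than in GFP IFNB and at least 16.5-fold higher than in ADAR Vehicle. The type III interferon gene *IFNL1* had 1 and 0 counts in GFP Vehicle, 0 in ADAR Vehicle and GFP IFNB, and 24 and 88 in ADAR IFNB (3.9 CPM), at least 34.8-fold higher than in GFP IFNB and at least 23.4-fold higher than in ADAR Vehicle. *IFNL2* had 28 and 86 counts in ADAR IFNB and *IFNL3* 15 and 64, but these genes are near-identical copies and the split of reads between them is uncertain. With the vehicle groups at or under the floor, the ratio of ratios is not defined for these genes, and since they passed the filter only through the libraries in which they were high, no test of them is given.

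Of 12 receptor and JAK-STAT genes, 1 was called more than additive (8.33%, against 4.07% of all genes), the feedback inhibitor gene *SOCS3*. *SOCS3* read 61.8 and 63.1 CPM in GFP Vehicle, 60.0003 and 62.1 CPM in ADAR Vehicle, 83.6 and 88.99 CPM in GFP IFNB, and 219 and 276 CPM in ADAR IFNB. IFN-β alone made a small called rise, 0.47 (SE 0.11, edgeR adjusted p = 0.00841) on the log2 scale, both ADAR IFNB libraries were above both GFP IFNB libraries, and the log2 interaction was 1.55 (SE 0.16, edgeR adjusted p = 9.54e-08). *STAT2* and *JAK1* were at 0.25 and 0.13 and were not called. Core antiviral ISGs contrast with the groups above. All 51 listed were tested, and all 51 were called up with IFN-β with both the GFP and the ADAR sgRNAs, at a median log2 change of 5.51 and 5.30. In the interaction 0 were more and 4 less than additive, against 0.977% of all genes, and the median was -0.19. The 4 were *PARP10* -1.64, *ISG15* -1.03, *APOL1* -0.79 and *UBE2L6* -0.54. With vehicle, *ISG15* stood at 4.35 and 4.91 CPM with the GFP sgRNAs and at 7.8 and 8.34 CPM with the ADAR sgRNAs, and with IFN-β it stood at 546 and 826 CPM against 603 and 549.9 CPM. With vehicle both ADAR libraries were above both GFP libraries, and with IFN-β the ADAR libraries lay within the range of the GFP libraries. Its log2 change with IFN-β was 7.19 (SE 0.18, edgeR adjusted p = 5.29e-24) with the GFP sgRNAs and 6.15 (SE 0.17, edgeR adjusted p = 6.09e-23) with the ADAR sgRNAs, and its log2 interaction was -1.03 (SE 0.27, edgeR adjusted p = 0.019). *ISG15* encodes a ubiquitin-like modifier and *UBE2L6* the enzyme that conjugates it. *PARP10* stood at only 0.396 to 1.93 CPM with vehicle. For *IFIT1*, the levels were 1.32 and 1.33 CPM (GFP Vehicle), 1.71 and 1.93 CPM (ADAR Vehicle), 1108 and 1005 CPM (GFP IFNB), and 967 and 855 CPM (ADAR IFNB). *IFIT1*, whose product binds viral RNA, was not called, at -0.68 (SE 0.34, edgeR adjusted p = 0.292). Nor was *PARP14* (-0.22). The count of 4 was 0 without GFP Vehicle replicate 2, ADAR Vehicle replicate 2 or ADAR IFNB replicate 2, was 1 without GFP Vehicle replicate 1, and was 1 with limma-voom. The calls of *PARP10*, *ISG15*, *APOL1* and *UBE2L6* were lost in 6, 4, 3 and 5 of the 8 fits that left out 1 library.

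The promoters of *ISG15* and *IFIT1* are shown for their interferon-stimulated response elements (ISRE, GAAANNGAAA), where the factors downstream of the IFN-β receptor bind. In RefSeq at build GRCh38.p14 they lie at chr1:1013247-1013496 (plus strand) and chr10:89392373-89392622 (plus strand).
ISG15: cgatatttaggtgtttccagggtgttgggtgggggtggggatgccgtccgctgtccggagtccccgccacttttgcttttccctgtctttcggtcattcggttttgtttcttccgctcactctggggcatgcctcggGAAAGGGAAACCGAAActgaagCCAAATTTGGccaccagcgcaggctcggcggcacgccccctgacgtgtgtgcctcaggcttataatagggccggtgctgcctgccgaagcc
IFIT1: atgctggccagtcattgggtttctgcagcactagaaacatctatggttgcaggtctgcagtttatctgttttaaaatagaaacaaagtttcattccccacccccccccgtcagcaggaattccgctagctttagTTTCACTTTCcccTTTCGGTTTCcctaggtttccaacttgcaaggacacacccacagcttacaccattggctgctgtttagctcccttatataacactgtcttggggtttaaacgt
The capitals mark ISRE matches that begin 113 and 107 bases before the start of *ISG15* and overlap, and 116 and 103 bases before the start of *IFIT1*, on the other strand. In *ISG15* they also mark a CArG box match at 91 bases.

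Among 20 dsRNA sensing genes tested, 2 were more and 1 less than additive, against 4.07% and 0.977% of all genes tested. *IKBKE*, a kinase that activates the transcription factor IRF3, was at 1.39 and the adaptor gene *TRAF3* at 0.50. *OAS1*, a sensor that activates RNase L, was at -0.65. *RIGI*, at 0.54, and *OAS3*, at -0.085, were not called. The count of 2 was 1 without GFP Vehicle replicate 1, GFP Vehicle replicate 2, ADAR Vehicle replicate 1, ADAR Vehicle replicate 2 or ADAR IFNB replicate 2 and 4 without ADAR IFNB replicate 1. Of 19 antigen presentation genes, *PSMB9*, an immunoproteasome subunit, was less than additive (-0.68), and *B2M*, the invariant chain of MHC class I, was at 0.033 and was not called. The calls of *TRAF3* (highest adjusted p by edgeR 0.285), *OAS1* (0.19) and *PSMB9* (0.254) were lost without at least 1 of ADAR IFNB replicate 2, ADAR Vehicle replicate 1, ADAR Vehicle replicate 2, GFP IFNB replicate 1, GFP IFNB replicate 2, GFP Vehicle replicate 1 and GFP Vehicle replicate 2.

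**Figure D3:**
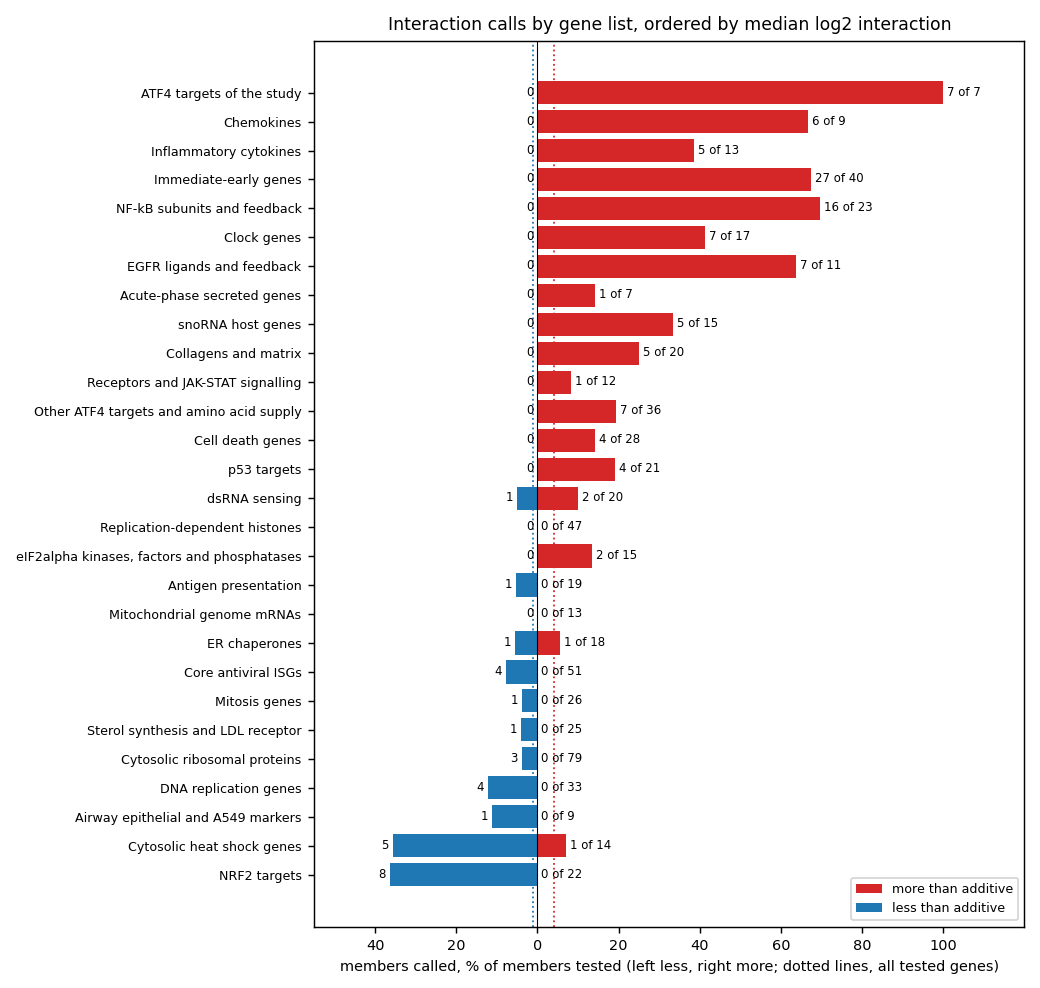
For each gene list, the bars give the percent of its tested members that were more than additive (to the right) and less than additive (to the left) in the interaction (edgeR adjusted p under 0.05), with the counts beside them and the percent over all genes tested as dotted lines. Immediate-early genes (27 of 40) and NF-κB genes (16 of 23) have calls to the more-than-additive side only, and NRF2 targets (8 of 22) to the less-than-additive side only.

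The less-than-additive genes had smaller changes. Of the 151, 20 reached a log2 interaction of 1 in size, against 284 of the 629. For 122 of them IFN-β made no called change in the GFP sgRNA cells, and 103 of these 122 were called down in ADAR IFNB against both GFP IFNB and ADAR Vehicle and not between ADAR and GFP with vehicle, with median levels of 101.3, 110.0, 112.5 and 77.8 CPM in GFP Vehicle, ADAR Vehicle, GFP IFNB and ADAR IFNB. For 28 IFN-β was called up in the GFP sgRNA cells, and for 1, *NT5DC2* (-0.68), it was called down in both. The largest group by list was that of NRF2 targets. NRF2 is a transcription factor that induces genes for glutathione supply, NADPH and quinone and carbonyl reduction through antioxidant response elements, and it is constitutively active in A549 because the line carries a mutation in its inhibitor KEAP1. All 22 listed were tested, of which 8 were less than additive, against 0.977% of all genes, and 0 more, with a median of -0.37. *AKR1C1* read 456 and 413 CPM in GFP Vehicle, 417 and 484 CPM in ADAR Vehicle, 426 and 496 CPM in GFP IFNB, and 286 and 257 CPM in ADAR IFNB. Both ADAR IFNB libraries were below the 6 others, which overlapped. *AKR1C1* encodes an aldo-keto reductase, and its log2 interaction was -0.82 (SE 0.15, edgeR adjusted p = 5.57e-04). With vehicle, *PGD* stood at 774 and 751 CPM with the GFP sgRNAs and at 768 and 825 CPM with the ADAR sgRNAs, and with IFN-β it stood at 782 and 798 CPM against 614 and 534 CPM. *PGD*, an NADPH-producing enzyme of the pentose phosphate pathway, had -0.53 (SE 0.14, edgeR adjusted p = 0.0213), with both ADAR IFNB libraries again the lowest. The others were *SRXN1* -0.92, *FTH1* -0.76, *AKR1C3* -0.74, *AKR1C2* -0.63, *CBR1* -0.61 and *TALDO1* -0.57. *SRXN1* encodes sulfiredoxin and *FTH1* the ferritin heavy chain. *TXNRD1* (-0.30), *FTL* (-0.29) and *AKR1B10* (-0.44) were not called. The count of 8 was 3 without GFP Vehicle replicate 2, ADAR Vehicle replicate 2 or ADAR IFNB replicate 2, was 4 without GFP Vehicle replicate 1, and was 13 with the offsets for GC content and length. *AKR1C1*, *AKR1C2* and *AKR1C3* are close paralogs, so reads could be split between them. Some calls were lost in part of the 8 fits that left out 1 library, with the number of such fits in brackets. They were those of *NT5DC2* (5), *PGD* (5), *SRXN1* (5), *AKR1C2* (3), *CBR1* (6) and *TALDO1* (4).

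The promoter of *PGD* is shown as that of a called NRF2 target whose 250 bases hold an antioxidant response element match (TGACNNNGC), here on the other strand. It lies in RefSeq at build GRCh38.p14, chr1:10398814-10399063 (plus strand).
PGD: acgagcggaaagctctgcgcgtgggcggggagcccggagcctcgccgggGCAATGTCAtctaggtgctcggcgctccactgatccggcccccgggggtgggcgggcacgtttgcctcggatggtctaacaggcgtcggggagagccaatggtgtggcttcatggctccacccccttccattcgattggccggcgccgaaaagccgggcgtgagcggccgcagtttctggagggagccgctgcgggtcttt
The match, in capitals, begins 201 bases before the start.

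Of 14 cytosolic heat shock genes tested, 5 were less than additive, against 0.977% of all genes, and *HSPB8* was more than additive (0.84). For *HSPA1A*, the levels were 128 and 125 CPM (GFP Vehicle), 115 and 118 CPM (ADAR Vehicle), 153 and 179.7 CPM (GFP IFNB), and 91.3 and 79.7 CPM (ADAR IFNB). IFN-β alone raised *HSPA1A*, the stress-inducible HSP70 gene, by a log2 change of 0.40 (SE 0.11, edgeR adjusted p = 0.017), and both ADAR IFNB libraries were the lowest of the 8. Its log2 interaction was -0.85 (SE 0.15, edgeR adjusted p = 5.47e-04), and that of its near-identical neighbour *HSPA1B* was -0.89, with reads that cannot be assigned to 1 of the pair with certainty. *HSPB1*, *HSPA8* and *HSP90AA1* were at -0.54, -0.45 and -0.45. *HSP90AB1*, *DNAJA1* and *HSPD1* were at -0.30, -0.31 and -0.26 and were not called. The count of 5 was 2 without GFP Vehicle replicate 1, GFP Vehicle replicate 2, ADAR Vehicle replicate 1, ADAR Vehicle replicate 2 or ADAR IFNB replicate 2, and 3 with total-count scaling. Among 18 endoplasmic reticulum chaperone genes, *XBP1*, a transcription factor of the unfolded protein response, was more than additive (1.02) and *CRELD2* less (-0.99), whereas *HSPA5*, which encodes BiP, was at -0.30 and was not called. The calls of *HSPB8*, *HSPB1*, *HSPA8*, *HSP90AA1* and *CRELD2* were lost in 5, 6, 5, 5 and 2 of the 8 fits that left out 1 library.

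Among 33 DNA replication genes, 4 were less than additive (12.1%, against 0.977% of all genes) and 0 more. *CCNE1* read 34.04 and 34.7 CPM in GFP Vehicle, 40.5 and 31.8 CPM in ADAR Vehicle, 37.5 and 30.4 CPM in GFP IFNB, and 19.97 and 20.2 CPM in ADAR IFNB. *CCNE1*, which encodes cyclin E1, had both ADAR IFNB libraries below the 6 others and a log2 interaction of -0.82 (SE 0.22, edgeR adjusted p = 0.0214). The helicase genes *MCM5* and *MCM3* and the sliding clamp gene *PCNA* were at -0.51, -0.49 and -0.49. The count of 4 was 0 without GFP Vehicle replicate 2, ADAR Vehicle replicate 1 or ADAR IFNB replicate 2, 1 without GFP Vehicle replicate 1 or ADAR Vehicle replicate 2, 2 with total-count scaling and 14 with the offsets for GC content and length. Of 26 mitosis genes, *PLK1* was called (-0.49), and *TOP2A* and *MKI67*, at -0.28 and -0.14, were not. Of 79 cytosolic ribosomal protein genes, 78 had a negative interaction, at a median of -0.24, against 0.0025 over all genes tested. Among the 79, 3 were called (3.8%, against 0.977% of all genes), *RPS15* -0.58, *RPS26* -0.48 and *RPL23A* -0.47. That count was 0 without GFP Vehicle replicate 2, ADAR Vehicle replicate 2 or ADAR IFNB replicate 2, 1 without GFP Vehicle replicate 1 or ADAR Vehicle replicate 1, 5 without GFP IFNB replicate 2, 7 without GFP IFNB replicate 1 or ADAR IFNB replicate 1, 6 with limma-voom and 5 with the offsets. The calls of *CCNE1* (highest adjusted p by edgeR 0.191), *MCM5* (0.309), *MCM3* (0.274), *PCNA* (0.361), *PLK1* (0.33), *RPS15* (0.158), *RPS26* (0.218) and *RPL23A* (0.299) were lost without at least 1 of ADAR IFNB replicate 2, ADAR Vehicle replicate 1, ADAR Vehicle replicate 2, GFP IFNB replicate 1, GFP IFNB replicate 2, GFP Vehicle replicate 1 and GFP Vehicle replicate 2.

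By size, the largest less-than-additive values named belonged to *PARP10* (-1.64) and to *ANXA2P1* -1.53, *MT-RNR1* -1.48, *PANX2* -1.19, *HNRNPA1P10* -1.18, *TMEM160* -1.15, *GYG2* -1.13, *MORF4L1P1* -1.11 and *C1QL1* -1.10. *ANXA2P1*, *HNRNPA1P10* and *MORF4L1P1*, like *POTEJ* and *RPS2P46*, are pseudogenes or near-identical copies, and the assignment of reads to them is uncertain. *MT-RNR1* is a mitochondrial ribosomal RNA, of the kind that the library preparation was meant to remove. *MT-RNR1* read 380.4 and 594 CPM in GFP Vehicle, 2212 and 899 CPM in ADAR Vehicle, 1059 and 1488 CPM in GFP IFNB, and 1992 and 912 CPM in ADAR IFNB. ADAR Vehicle replicate 1 was the highest of the 8 and the 2 ADAR Vehicle libraries differed more from each other than their mean did from that of GFP IFNB. *GADD45GIP1* and *RAB5IF* were at -0.98 and -0.996. Of the classes, *TMSB10* (-0.69) was called up with IFN-β in the GFP sgRNA cells and down in ADAR IFNB against GFP IFNB. *PKDCC* (-0.83) was called up with IFN-β in both. The nucleolin gene *NCL* (-0.54) and *CETN2* (-0.73) were called only in ADAR IFNB against GFP IFNB, and *NDUFS5* (-0.62) and *EBNA1BP2* (-0.55) only in ADAR IFNB against ADAR Vehicle. Some calls were lost in part of the 8 fits that left out 1 library, with the number of such fits in brackets. They were those of *PARP10* (6), *ANXA2P1* (3), *MT-RNR1* (4), *PANX2* (5), *HNRNPA1P10* (6), *TMEM160* (1), *GYG2* (7), *MORF4L1P1* (5) and *C1QL1* (3). Those of *POTEJ* (4), *RPS2P46* (4), *RAB5IF* (4), *PKDCC* (3), *NCL* (4), *CETN2* (5), *NDUFS5* (4) and *EBNA1BP2* (6) were also lost in part.

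**Figure D4:**
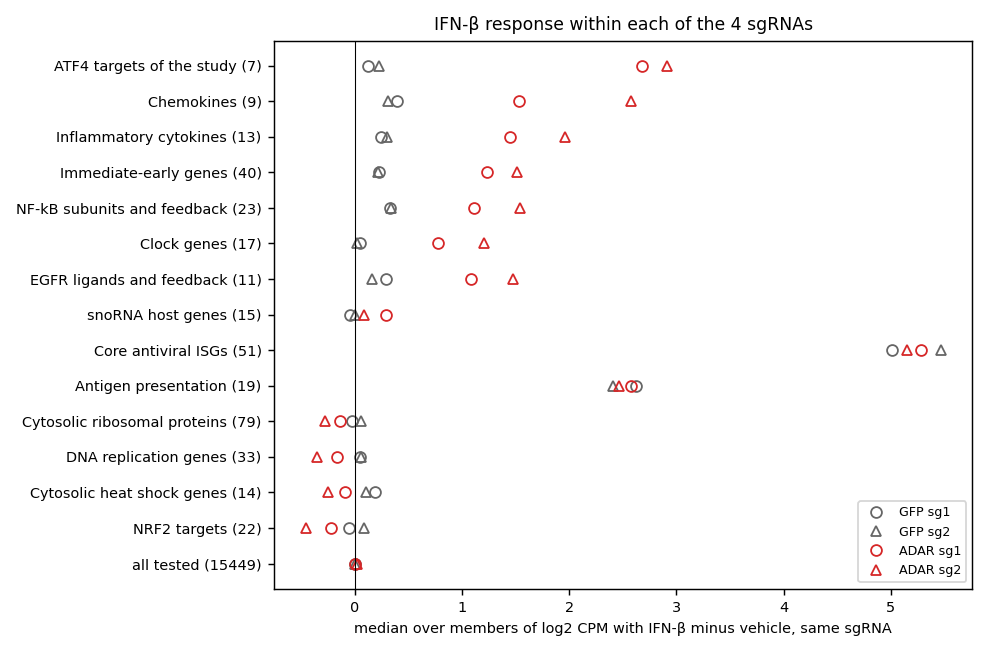
Median log2 change with IFN-β within each of the 4 sgRNAs for gene lists and for all genes tested, with circles for sgRNA 1 and triangles for sgRNA 2 (grey GFP, red ADAR) and the number of genes in brackets. In immediate-early, NF-κB and ATF4 target genes both ADAR sgRNAs lie above both GFP sgRNAs, while the 4 points of the core antiviral ISGs lie between 5.01 and 5.46.

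The 2 directions differed in features that the test did not use. Protein-coding genes made up 93.6% of the more-than-additive, 88.7% of the less-than-additive and 79.5% of all genes tested. Over coding genes, the median transcript length was 4486 bases for the more-than-additive genes, 3392 for all genes and 1536 for the less-than-additive genes. The quartiles ran from 2810 to 6484, from 2090 to 5313 and from 1016 to 2883 bases. The median GC content was 45.9%, 48.5% and 55.1% in the same order, and the median exon number 9, 9 and 6. Called genes also stood at higher levels, with a median in GFP Vehicle of 36.2 CPM for the more-than-additive and 86.7 CPM for the less-than-additive genes. The median of all genes tested was 17.2 CPM. The features were not compared at matched levels, so they cannot be told apart from expression level. These are descriptions with no test. GC content and length together accounted for 0.35% to 11.1% of the variance between genes of a library's log2 ratio to the mean of the 8 libraries. The share was highest in GFP IFNB replicate 2 (11.1%), followed by ADAR IFNB replicate 2 (6.61%). How the calls change once each library is given an offset for GC content and length is stated above.

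Motif matches were counted in the 250 bases before the start of protein-coding genes, on both strands, where RefSeq gave a promoter for at least 80% of a set. That was 81.4% of the genes tested, 84.7% of the more-than-additive and 84.3% of the less-than-additive genes. An NF-κB site lay in 10.4% of more-than-additive, 4.42% of less-than-additive and 6.07% of all promoters. An AP-1 site (TGANTCA) lay in 6.61%, 5.31% and 3.76%, and a cAMP response element in 4.81%, 2.65% and 2.96%. The ISRE was found in 2.2%, 1.77% and 2.27%. An antioxidant response element lay in 9.62%, 18.6% and 11.9%. The CArG box, the GAS, the E-box and the C/EBP-ATF element were found in 1.2%, 5.01%, 8.62% and 2.2% of more-than-additive promoters, against 0.971%, 5.51%, 8.88% and 1.26% of all. Over the 300 bases of the table, which run past the start, the NF-κB site lay in 11.6% of more-than-additive and 6.67% of all promoters and the antioxidant response element in 23.01% of less-than-additive and 14.97% of all. The GC content of the sets differs, motifs overlap one another, and a match of letters is not a bound site.

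The 12 libraries of HCC366, NCI-H1650 and NCI-H196 gave a comparison that the A549 fit did not use. These are lung cancer lines that depend on ADAR1, and they were compared between ADAR and GFP sgRNAs with no added IFN-β. In NCI-H1650, 286 of the 607 more-than-additive genes tested there were called higher with *ADAR* KO by edgeR (47.1%, against 6.18% of all genes tested in that line), and 0 lower. In NCI-H196, 291 of 600 were called higher (48.5%, against 10.3%) and 14 lower. In HCC366, 49 of 587 were called higher (8.35%, against 1.20%) and 0 lower. Genes of the more-than-additive set made up 31.8%, 19.99% and 36.6% of the lines' own lists of higher genes. NCI-H196 GFP replicate 2 held only 62679 counts, and without it 303 of 613 were called higher, against 9.40%. In HCC366 ADAR replicate 2, 85.6% of alignments were not unique. The less-than-additive genes were called lower for 12 of 140 in NCI-H1650 (8.57%, against 2.42%), for 24 of 141 in NCI-H196 (17.02%, against 7.50%) and for 0 of 130 in HCC366 (against 0.0449%). Without NCI-H196 GFP replicate 2, 31 of 147 were called lower there (21.1%, against 8.06%). Of the less-than-additive genes, 2 in NCI-H1650 and 13 in NCI-H196 were called higher.

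Single members followed the direction of the A549 interaction to different degrees. The values of these lines are changes with *ADAR* KO without IFN-β, which is not the same measure as the interaction. The log2 change of *EGR1* with *ADAR* KO was 3.34 in the NCI-H196 line, 5.59 in the HCC366 line and 1.83 in the NCI-H1650 line, each called. *TNFAIP3* was at 1.75 in the NCI-H196 line, 1.99 in the HCC366 line and 1.73 in the NCI-H1650 line, *ATF3* at 1.57 in the NCI-H196 line, 4.15 in the HCC366 line and 1.90 in the NCI-H1650 line, *PPP1R15A* at 1.10 in the NCI-H196 line, 4.12 in the HCC366 line and 1.16 in the NCI-H1650 line and *PER1* at 1.67 in the NCI-H196 line, 2.42 in the HCC366 line and 1.15 in the NCI-H1650 line, each called in all 3 lines. *CXCL8* was at 1.38 in the NCI-H196 line, 2.88 in the HCC366 line and 1.78 in the NCI-H1650 line, also each called. *HBEGF* was called in NCI-H1650 (0.91) and not in HCC366 (1.58) or NCI-H196 (0.23). *IL6* was called in NCI-H1650 (1.15) and NCI-H196 (1.43) and not in HCC366 (1.30). *ISG15*, less than additive in A549, was called higher in NCI-H1650 (0.47) and NCI-H196 (0.89), and *HSPA1A*, also less than additive in A549, was called higher in NCI-H196 (0.58). In A549 with vehicle, both ADAR libraries were above both GFP libraries for *ISG15* and below them for *HSPA1A*. The difference between lines was not tested.

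**Figure D5:**
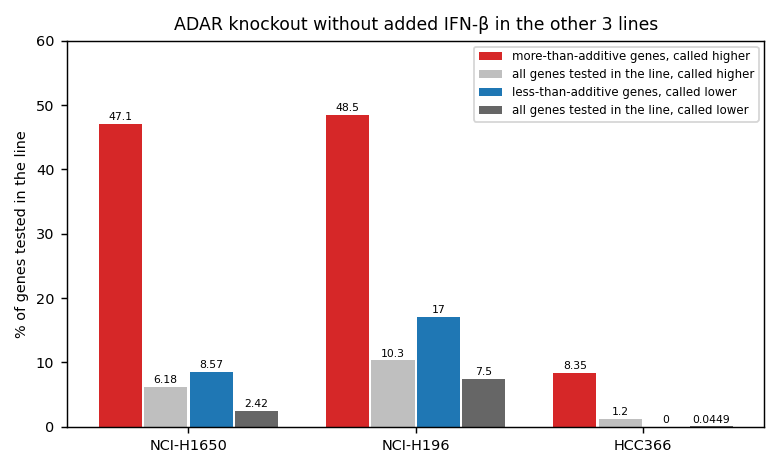
Percent of the more-than-additive genes of A549 called higher, and of the less-than-additive genes called lower, with *ADAR* KO in each of the other lines, each beside the percent over all genes tested in that line. The more-than-additive genes called higher reach 47.1% in NCI-H1650 and 48.5% in NCI-H196, against 6.18% and 10.3% of all genes.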

How the data were processed

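RNA was measured in A549 cells with GFP or ADAR sgRNAs and vehicle or IFN-β, with 2 libraries in each of 4 groups. Per the labels and the methods of the study, ribosomal RNA was depleted, strand-specific libraries were sequenced as paired ends, reads were aligned with STAR to hg19, and read counts per gene were made with HTSeq, whose strand setting was not given in the sources used here, so that overlapping and antisense genes may share reads. Tool versions were not given in the sources used here. The values deposited by the authors are raw counts of uniquely aligned reads, so near-identical genes are under-counted or split. Counts held by rows that name no gene (9.04% to 11.2% of reads without a feature, 39.6% to 59.1% not unique) were left out. Of 58233 identifiers, 55727 were matched to a gene symbol in a table of gene names.

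From these counts, the interaction was fitted on the 8 A549 libraries with edgeR 4.0.16 in R 4.3.3 (filterByExpr by group, TMM scaling, glmQLFit and glmQLFTest, Benjamini-Hochberg threshold 0.05). No block was used, as the study's methods name none. SEs are the absolute log2 value divided by the root of F. CPM are TMM-scaled. Libraries numbered 1 and 2 differ in sgRNA. P-values measure the spread between sgRNAs. DESeq2 1.42.0, limma-voom (limma 3.58.1), other scalings and filters, 2 blocks, GC and length offsets and leaving out each library were alternatives. The script was tested on simulated data.

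The members, the gene lists (33 lists, 14 of 760 symbols unmatched) and the tests were chosen with earlier results of these data known. Named genes are *ADAR* and *EIF2AK2*, the 15 largest called interactions in each direction among genes of at least 5 CPM whose responses did not overlap, the called members of each list with the largest and smallest values (up to 6) with up to 3 members not called, and the 2 genes of each class with the smallest p. *NFKBIA*, *AKR1C2*, *CBR1*, *IFNL3*, *MYL6*, *GGH* and *SIPA1L3* were named outside this rule, after their values were seen, as were the promoters shown. A few genes that the rule names are not reported here. The motifs were searched in RefSeq promoters of build GRCh38.p14. The limit for a count of 0 is 3 counts, which covers counting error only. Depth ran from 7381566 to 19520189 counts.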

Additional observations from a re-analysis of the deposited data

Results flagged for a closer look

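The response to IFN-β differed between cells with ADAR and with GFP sgRNAs, by a test of the difference itself (edgeR's quasi-likelihood test of the interaction). The signed log2 change with IFN-β was higher with the ADAR sgRNAs for 629 genes and lower for 151. Higher and lower refer to sign and not to size. Of the 151 genes, 121 were called down with IFN-β in the ADAR sgRNA cells. At the ends of the range among the named genes stood *EGR1*, with a log2 interaction of 5.49, and *PARP10*, with -1.64. For *EGR1* and *PARP10* both ADAR sgRNAs lay on the same side of both GFP sgRNAs, which the rule that named them required. Over all genes tested this held for 46.1%. What lies behind these differences was not tested.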

How the results depend on the processing

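Direction was kept for all 629 more-than-additive genes in each of the 18 alternatives in which they were tested, and likewise for the 151 less-than-additive genes. The alternatives reuse the libraries on which these genes were called, so the kept direction is not independent evidence. Of the 629 and the 151 genes, 124 and 0 were called in all 18 alternatives, and 149 and 1 in the 10 that left out no library. Counts stayed within 1.5 times with DESeq2 (603 more and 166 less), limma-voom (631 and 191), median-of-ratios factors (629 and 155), total counts (708 and 107), no filter (658 and 152) and at least 10 counts in every library (629 and 183). Fitting all 20 libraries together gave 164 calls, 161 more and 3 less. With offsets for GC content and length, chosen after seeing the data, 458 genes were less than additive, and the median log2 interaction of all genes was -0.0573, against 0.0025 without them. Leaving out 1 library in turn gave 253 to 1663 calls, 235 to 1049 more and 18 to 614 less than additive, and 115, 89 and 264 less without GFP IFNB replicate 2, GFP Vehicle replicate 1 and ADAR IFNB replicate 1. Of 136 called genes named, 57 kept the call whichever of the 8 libraries was dropped. With vehicle, DESeq2 called 11 genes between ADAR and GFP sgRNAs. The same ranges were 3 to 22 with vehicle and 689 to 3581 with IFN-β between ADAR and GFP, and 517 to 1245 with the GFP and 1774 to 4568 with the ADAR sgRNAs between IFN-β and vehicle. The lowest were reached without GFP Vehicle replicate 2 (3 and 517) and ADAR IFNB replicate 2 (689 and 1774) and all 4 of the highest without GFP IFNB replicate 1. Counts also moved by over 1.5 times without ADAR Vehicle replicate 1 (12 between ADAR and GFP with vehicle and 2400 between IFN-β and vehicle with the ADAR sgRNAs), without ADAR Vehicle replicate 2 (7 and 2154 in the same comparisons) and without GFP IFNB replicate 2 (1464 between ADAR and GFP with IFN-β). The causes of these shifts were not tested. Of the named genes that were not called, *EIF2AK2* changed sign with all 20 libraries (-0.014), with the GC and length offsets (-0.24) and with single libraries dropped (-0.11 to 0.17), and *B2M* with all 20 libraries (-0.0065) and with single libraries dropped (-0.11 to 0.19). *ATF4* (-0.023 to 0.14) and *CDKN1A* (-0.11 to 0.21) changed sign with single libraries dropped, and *JAK1* (-0.0017), *SLC7A11* (-0.020) and *MDM2* (-0.054) with the offsets.

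A replicate block by sgRNA number gave 707 calls (583 more and 124 less), and 19, 2490, 849 and 3655 calls in the 4 simple comparisons in the order above. A block by sgRNA gave 824 (659 and 165). Deviations of same-numbered libraries from their group means correlated between -0.0857 and 0.0525 over all pairs of groups. By the labels, vehicle and IFN-β libraries of the same target and number share an sgRNA. Between these the correlation was -0.0857 for GFP and -0.0086 for ADAR, so little deviation was shared. This does not undo the pairing by sgRNA, which the block by sgRNA follows. Under the number block the heat shock count went from 5 to 3, the ribosomal protein count from 3 to 1 and the dsRNA sensing count from 2 to 1, and the block by sgRNA gave the same 3 counts.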
